A study of Arabidopsis thaliana with 6 samples.

Results

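The genes described here encode machinery that sorts proteins to the vacuole and moves membrane between compartments. They were taken by symbol: each had a probe set that the array's annotation assigned to 1 gene. The symbol began, with or without AT, with VPS, VTI, SYP, VAMP, VSR, RAB, EXO70, SNX, RTNLB or VHA, or with SEC and a digit. After this start came a number, with at most 1 letter or hyphen before it. A SEC symbol with only 1 digit could therefore not match. Of 13356 genes with a probe set assigned to 1 gene, 17 met the rule, each with 1 probe set. They were 10 VPS genes, 5 SEC genes (SEC10, SEC15A, SEC15B, AtSec20 and SEC22), the syntaxin gene ATSYP24 and the Rab gene RAB6A. No gene of the VTI, VAMP, VSR, EXO70, SNX, RTNLB or VHA groups met it, and proton pump genes written like VHA-A1, with both a hyphen and a letter, are described among the other trafficking genes.

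Transcripts were measured on 6 ATH1 arrays, a 1-colour Affymetrix platform that reads each transcript with a set of short probes (a probe set). The plants were 4-week-old wild type of the Columbia ecotype (Col-0). Untreated plants harvested at 0 h gave 3 control arrays, and plants kept under water in the light for 48 h gave the other 3, labelled as hypoxia under light submergence. Each sample was a biological replicate collected from 3 plants. The control was taken before the treatment, so submergence, the 48 h between harvests and the lower light that the methods give for submergence cannot be told apart. Values are log2 signals, as deposited. A gene was called upregulated or downregulated at an adjusted p under 0.05 by limma, over all 22746 probe sets, with a difference of at least 1.5-fold. A signal counted as above background when it exceeded the 40th percentile of its array, which lay between 6.17 and 6.39 on the control arrays and between 5.55 and 5.84 on the submerged arrays.

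ESCRT complexes (endosomal sorting complexes required for transport) act in sequence on the endosome. They gather ubiquitinated membrane proteins and bud them into the endosome, which is then a multivesicular body that delivers them to the vacuole for breakdown. ESCRT-I and ESCRT-II bind cargo, and the small proteins of ESCRT-III polymerise into the filament that constricts and cuts the membrane. Rab GTPases mark compartments, tethers such as the exocyst catch vesicles at their target, and SNARE proteins drive the fusion. In leaves the vacuole fills most of the cell, and these routes supply it with proteases, channels and proteins to be degraded.

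After 48-h light submergence, 7 of the 17 genes were upregulated, 1 was downregulated and 9 did not pass the test. Over all probe sets, 42.6% were called, 18.3% upregulated and 24.3% downregulated, and over those above background on all 6 arrays the shares were 27.4% and 31.4%. The median log2 fold change of the 17 genes was 0.42, against -0.26 for all probe sets and -0.08 for those above background on all 6 arrays. Among 9 ESCRT genes, 5 were upregulated and 1 downregulated, with a median log2 fold change of 0.88. Among the other 8 genes, 2 were upregulated and none downregulated, with a median of -0.14. The genes were grouped by complex with their values known, and the difference between the groups was not tested. Of the 17, 15 lay above background on at least 3 arrays and 14 on all 6. The arrays of leaf tissue hold RNA of many cell types, in which fewer cells of a type and less RNA per cell cannot be told apart.

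**Figure D1:**
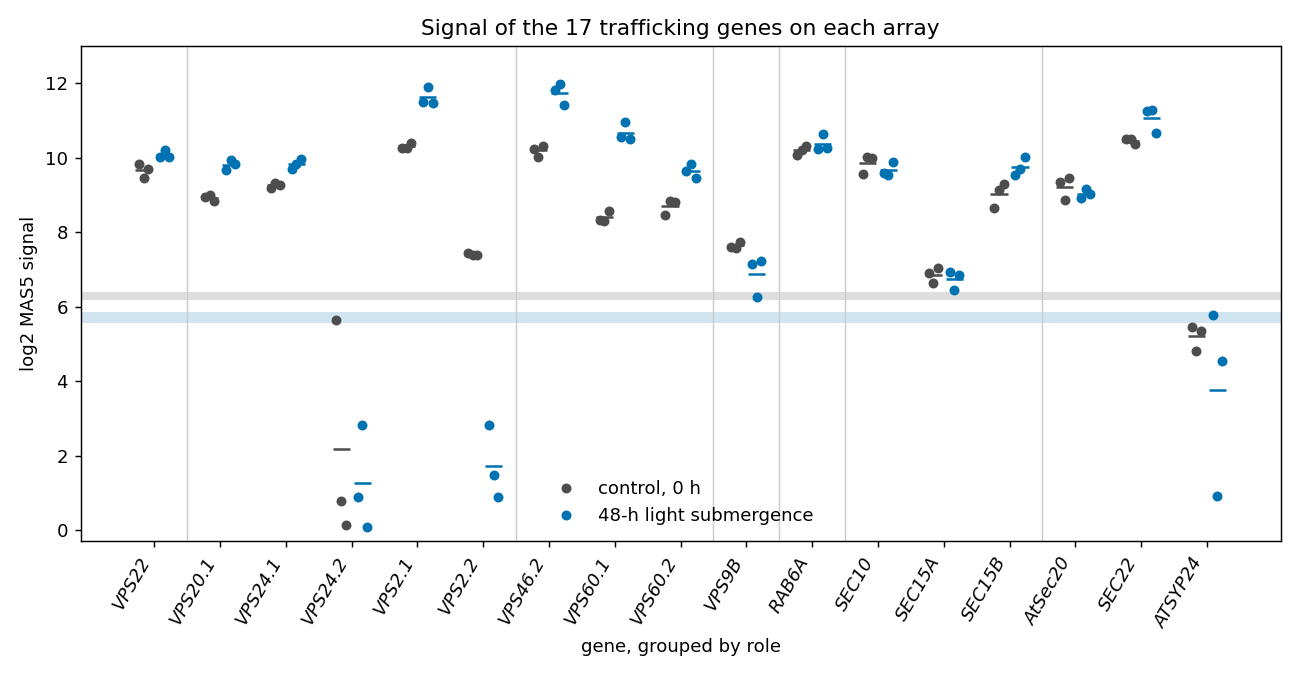
Log2 MAS5 signal (vertical axis) of each of the 17 genes on the 3 control arrays (grey points) and the 3 arrays after 48-h light submergence (blue points), with the mean of each condition as a bar and the range of the background level of the arrays as a band of the same colour. VPS60.1, VPS46.2 and VPS2.1 are clearly higher on the submerged arrays, VPS2.2 drops below background there, and VPS24.2 and ATSYP24 stay below background on all 6 arrays.

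The arrays were alike within each condition, with correlations of 0.909 to 0.924 between control arrays and 0.921 between submerged arrays, against 0.732 to 0.806 between conditions. The 3 named genes of leaf photosynthesis, RCA, LHCB4.1 and PRK, were above background on every array and fell, with log2 fold changes of -1.11, -1.63 and -1.67. The root genes EXP7 and PYK10 were above background on fewer than 3 of the 6 arrays. Among other cell type markers, the phloem sugar exporter gene SWEET11 rose (log2 fold change 0.75), and the guard cell regulator gene FAMA did not pass the test. The epidermal receptor kinase gene ACR4 was called lower, from control signals near background. It was above background on 2 of the 3 control arrays and on no submerged array. The part of cell composition in the results was not tested. Another scaling moved the median log2 fold change of all probe sets by more than 0.1. It was -0.26 as deposited and 0.02 after quantile normalization. The median of the 17 genes was 0.42 as deposited and 0.37 after quantile normalization.

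Among the 9 ESCRT genes of the rule, VPS60.1 rose most. It belongs to the ESCRT-III-related group, of which all 3 genes that met the rule were upregulated. Over all probe sets 18.3% were, and 27.4% of those above background on all 6 arrays. The proteins of this group join the filament late, and in yeast they regulate the ATPase that takes it apart. VPS60.1 (At3g10640) gave log2 signals of 8.33, 8.29 and 8.56 on the control arrays and 10.55, 10.96 and 10.50 on the submerged arrays. The lowest submerged array lay 1.95 above the highest control array. VPS60.1 rose 4.85-fold (2.28 ± 0.17 SE on the log2 scale, limma adjusted p = 2.97e-06), a larger log2 fold change than those of 93.6% of all probe sets.

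The paralog VPS60.2 (At5g04850) gave 8.45, 8.83 and 8.82 on the control arrays and 9.65, 9.82 and 9.45 on the submerged arrays. It rose 1.92-fold, again with no overlap between the conditions (0.94 ± 0.18 SE on the log2 scale, limma adjusted p = 0.00135). Both copies rose, and on these arrays the log2 fold change of VPS60.1 exceeded that of VPS60.2 by 1.34 (standard error 0.14). By a two-sided exact permutation test of the 6 arrays, p was 0.10, the smallest that 3 arrays against 3 allow, or 0.125 adjusted over 5 paralog pairs.

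VPS46.2 (At1g73030), also named CHMP1A, encodes a CHMP1 protein, and plants need proteins of this type to sort auxin carriers into multivesicular bodies. Its log2 signals were 10.24, 10.03 and 10.32 on the control arrays and 11.81, 11.98 and 11.40 on the submerged arrays. The groups were well apart, with a gap of 1.08 between the lowest submerged and the highest control array. VPS46.2 rose 2.89-fold (1.53 ± 0.17 SE on the log2 scale, limma adjusted p = 4.55e-05).

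The core of the ESCRT-III filament was represented by 5 genes, of which 2 were upregulated, 1 was downregulated and 2 were not called. VPS20 proteins link ESCRT-II to the filament and start it. VPS20.1 (At5g63880) gave 8.94, 8.99 and 8.85 on the control arrays and 9.66, 9.93 and 9.84 on the submerged arrays. It rose 1.85-fold (0.88 ± 0.15 SE on the log2 scale, limma adjusted p = 0.000658), and all submerged arrays were above all control arrays.

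VPS2 proteins, as known from yeast, cap the filament together with VPS24 and recruit the ATPase that recycles it. The copies of VPS2 that met the symbol rule, VPS2.1 and VPS2.2, went in opposite directions. VPS2.1 (At2g06530) gave 10.25, 10.26 and 10.39 on the control arrays and 11.51, 11.91 and 11.47 on the submerged arrays, with a gap of 1.09 between the conditions. It rose 2.51-fold (1.33 ± 0.15 SE on the log2 scale, limma adjusted p = 5.43e-05).

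VPS2.2 (At5g44560) gave 7.45, 7.39 and 7.38 on the control arrays, a spread of 0.04 (SD, n = 3), and 2.81, 1.48 and 0.88 on the submerged arrays. It was above background on the 3 control arrays and on no submerged array. The condition means were 7.41 and 1.72. Signals below background give only a bound, so the mean of the control arrays was set against the background level of the submerged arrays. On the deposited scale VPS2.2 was at least 3.17-fold lower. Background was lower on the submerged than on the control arrays, and no bound was computed after another scaling. The call came from the limma fit of the deposited signals (adjusted p = 0.000136), which does not test the bound. The order of the 3 submerged values carries no information, because they lie below background. The log2 fold changes of VPS2.1 and VPS2.2 differed with no overlap between the arrays (exact permutation p = 0.10, two-sided, again the smallest possible, and 0.125 adjusted over the 5 pairs). VPS2.2 was the only one of the 17 genes to be called downregulated.

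VPS24.1 (At5g22950), the partner of VPS2 in the cap, gave 9.20, 9.31 and 9.26 on the control arrays and 9.69, 9.82 and 9.98 on the submerged arrays. The conditions did not overlap, and the adjusted p was 0.00791 from limma, but the difference of 1.49-fold was just under the minimum of 1.5-fold, so VPS24.1 was not called. Its call depended on single arrays: the log2 fold change was 0.60 without control replicate 2 and 0.64 without submergence replicate 1, and it passed in both cases. Its paralog VPS24.2 (At3g45000) was not above background on any array. VPS24.2 gave 5.64, 0.78 and 0.14 on the control arrays and 0.88, 2.81 and 0.08 on the submerged arrays, so no direction can be given.

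VPS22 (At4g27040) was the only ESCRT-II gene that met the symbol rule. It gave 9.83, 9.45 and 9.70 on the control arrays and 10.03, 10.19 and 10.02 on the submerged arrays. Its arrays did not overlap either, by a gap of 0.19, but the difference was small (log2 fold change 0.42, 95% confidence interval 0.08 to 0.76, limma adjusted p = 0.044) and under the fold minimum. In all, 7 of the 9 ESCRT genes were higher on every submerged array than on any control array. Over all probe sets 23.1% were, and 34.2% of those above background on all 6 arrays.

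**Figure D2:**
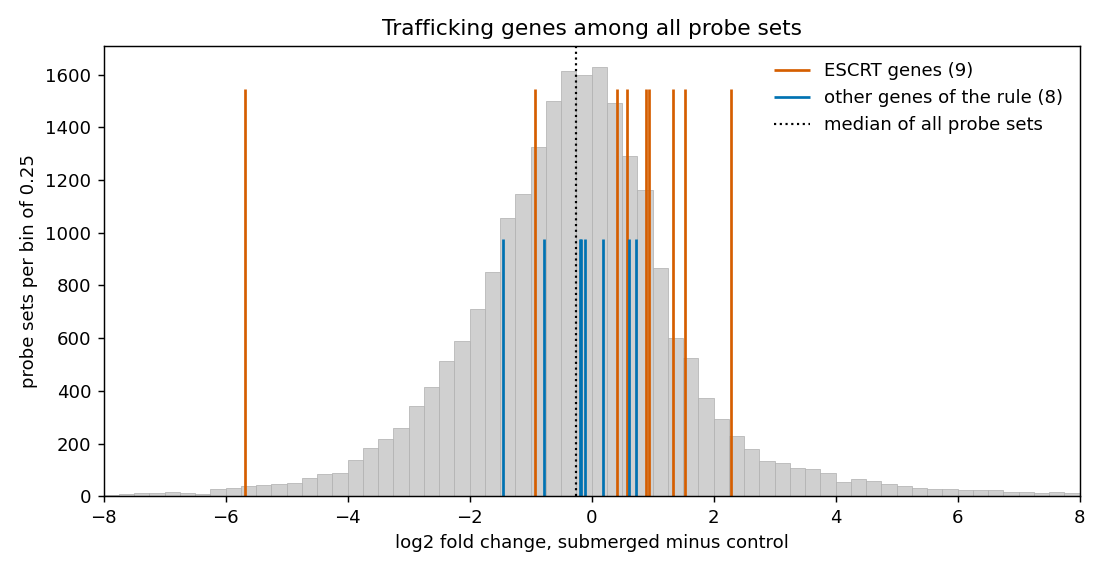
Histogram of the log2 fold change (submerged minus control, horizontal axis) of all 22746 probe sets, as the number of probe sets per bin of 0.25 (58 beyond 8 on either side are not drawn), with the 9 ESCRT genes as orange lines, the other 8 genes as shorter blue lines and the median of all probe sets, -0.26, as a dotted line. The lines of 7 ESCRT genes stand right of 0.4, as do those of SEC15B and SEC22 among the other genes, and that of VPS2.2 lies far to the left; the values of VPS2.2, VPS24.2 and ATSYP24 are of signals below background.

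Other genes of the ESCRT pathway were taken from a list of trafficking genes outside the symbol rule. ELC, SNF7.1 and SNF7.2 were measured, and all 3 rose. ELC (At3g12400) encodes the ubiquitin-binding subunit of ESCRT-I, and its signals rose from 8.69 ± 0.16 (SD, n = 3) to 10.17 ± 0.07 (SD, n = 3), 2.80-fold higher (limma adjusted p = 2.03e-05). SNF7 proteins form the body of the filament. SNF7.1 (At4g29160) rose 2.79-fold (1.48 ± 0.14 SE on the log2 scale, limma adjusted p = 1.59e-05). SNF7.2 (At2g19830) rose 1.82-fold (0.86 ± 0.19 SE on the log2 scale, limma adjusted p = 0.00345). The difference between the SNF7 copies was 0.62 (standard error 0.25; exact permutation p = 0.10, two-sided). With these 3 genes, 8 of 12 ESCRT genes were upregulated, 1 was downregulated and 3 did not pass. Over all probe sets 18.3% were upregulated and 24.3% downregulated, against 27.4% and 31.4% of those above background on all 6 arrays. ELC, SNF7.1 and SNF7.2 were taken, with values known, from a heading of 5 genes for ESCRT and endosomal sorting. Its others were CCZ1A, called lower, and MON1, not called.

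Outside ESCRT, VPS9B and RAB6A, the members of the 17 that act in Rab control, did not pass the test. VPS9 proteins activate the Rab5-type GTPases of endosomes. VPS9B (At5g09320) gave 7.60, 7.59 and 7.75 on the control arrays and 7.14, 6.25 and 7.21 on the submerged arrays. Each submerged array was below each control array, a pattern that 31.5% of all probe sets showed. The spread of the submerged arrays was wide, and the log2 fold change was -0.77 (95% confidence interval -1.49 to -0.06, limma adjusted p = 0.0766). VPS9B was called lower when the test was limited to signals over background on 3 arrays or more (limma adjusted p = 0.0475), and it lay at -0.39 after quantile normalization.

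RAB6A (At2g44610), also named RABH1B, is a Golgi Rab. It gave 10.06, 10.20 and 10.32 on the control arrays and 10.23, 10.65 and 10.25 on the submerged arrays. The conditions overlapped, and the log2 fold change was 0.18 (95% confidence interval -0.17 to 0.53, limma adjusted p = 0.41).

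The exocyst tethers secretory vesicles to the plasma membrane, and 3 genes of its subunits met the symbol rule. SEC15B (At4g02350) gave 8.65, 9.13 and 9.29 on the control arrays and 9.55, 9.69 and 10.02 on the submerged arrays. It rose 1.66-fold (0.73 ± 0.20 SE on the log2 scale, limma adjusted p = 0.0141), with a gap of 0.25 between the conditions. The call was lost without control replicate 1 (log2 fold change 0.54, limma adjusted p = 0.0532) and without the variance trend (limma adjusted p = 0.0729).

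SEC15A (At3g56640), its paralog, gave 6.91, 6.63 and 7.03 on the control arrays and 6.94, 6.45 and 6.85 on the submerged arrays, signals near background with full overlap. Its log2 fold change was -0.11 (95% confidence interval -0.84 to 0.62, limma adjusted p = 0.827), and it was 0.37 after quantile normalization. The log2 fold change of SEC15A minus that of SEC15B was -0.84 (standard error 0.30; exact permutation p = 0.10, two-sided, the smallest possible).

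SEC10 (At5g12370) is known as a pair of near-identical copies, whose signals a probe set may not tell apart. It gave 9.56, 10.03 and 9.99 on the control arrays and 9.60, 9.53 and 9.88 on the submerged arrays. The arrays overlapped (log2 fold change -0.19, 95% confidence interval -0.58 to 0.20, limma adjusted p = 0.435).

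Of the 3 SNARE genes, 1 rose. SEC22 (At1g11890) encodes a SNARE of traffic between the endoplasmic reticulum and the Golgi. It gave 10.50, 10.51 and 10.36 on the control arrays and 11.25, 11.28 and 10.67 on the submerged arrays. The increase was 1.53-fold (0.61 ± 0.18 SE on the log2 scale, limma adjusted p = 0.0175), and the gap of 0.16 rested on submergence replicate 3, the lowest of its group. The value stood close to the fold minimum, and the call was lost in several settings: without control replicate 3 (0.56), submergence replicate 1 (0.52) or submergence replicate 2 (0.50), after quantile normalization (0.49), with the 75th percentile subtracted (0.55) and without the variance trend (limma adjusted p = 0.0901).

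AtSec20 (At3g24315) encodes a SNARE that in yeast serves the return from the Golgi to the endoplasmic reticulum. It gave 9.34, 8.85 and 9.44 on the control arrays and 8.92, 9.15 and 9.02 on the submerged arrays, with overlap. Its log2 fold change was -0.18 (95% confidence interval -0.60 to 0.24, limma adjusted p = 0.493). ATSYP24 (At1g32270), a syntaxin of the SYP2 family, was not above background on any array. It gave 5.46, 4.82 and 5.35 on the control arrays and 5.78, 0.91 and 4.55 on the submerged arrays, and no direction can be given.

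**Figure D3:**
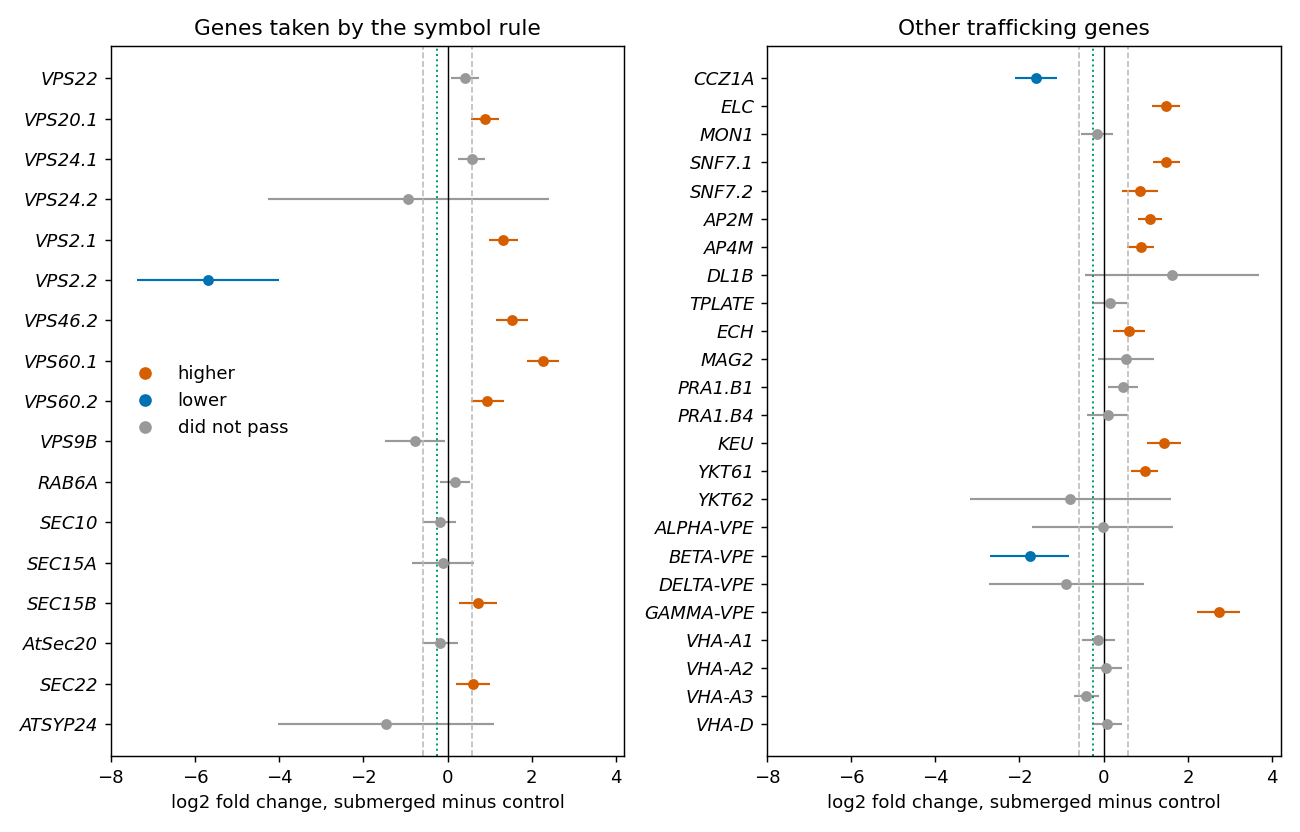
Log2 fold change (submerged minus control) with its 95% confidence interval from limma for the 17 genes (left) and for 24 other trafficking genes (right), coloured by whether the gene was upregulated (orange), downregulated (blue) or did not pass (grey). Dashed lines mark 1.5-fold, the dotted line the median of all probe sets; the intervals of VPS2.2, VPS24.2, ATSYP24, DL1B, YKT62 and the VPE genes other than GAMMA-VPE include signals below background and give no size of fold.

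Among the 14 genes above background on all 3 submerged arrays, submergence replicate 2 gave the highest of the submerged signals for 9, replicate 3 for 4 and replicate 1 for 1. Submergence replicate 2 also had the lowest background level of the 6, at 5.55. Without it, 6 of the 17 genes were upregulated and 1 downregulated. VPS60.1, VPS46.2 and VPS2.1 kept their calls without any 1 of the arrays. Over the 6 fits that left out 1 array each, the log2 fold change ranged from 2.13 to 2.36 for VPS60.1, from 1.41 to 1.70 for VPS46.2 and from 1.19 to 1.41 for VPS2.1.

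**Figure D4:**
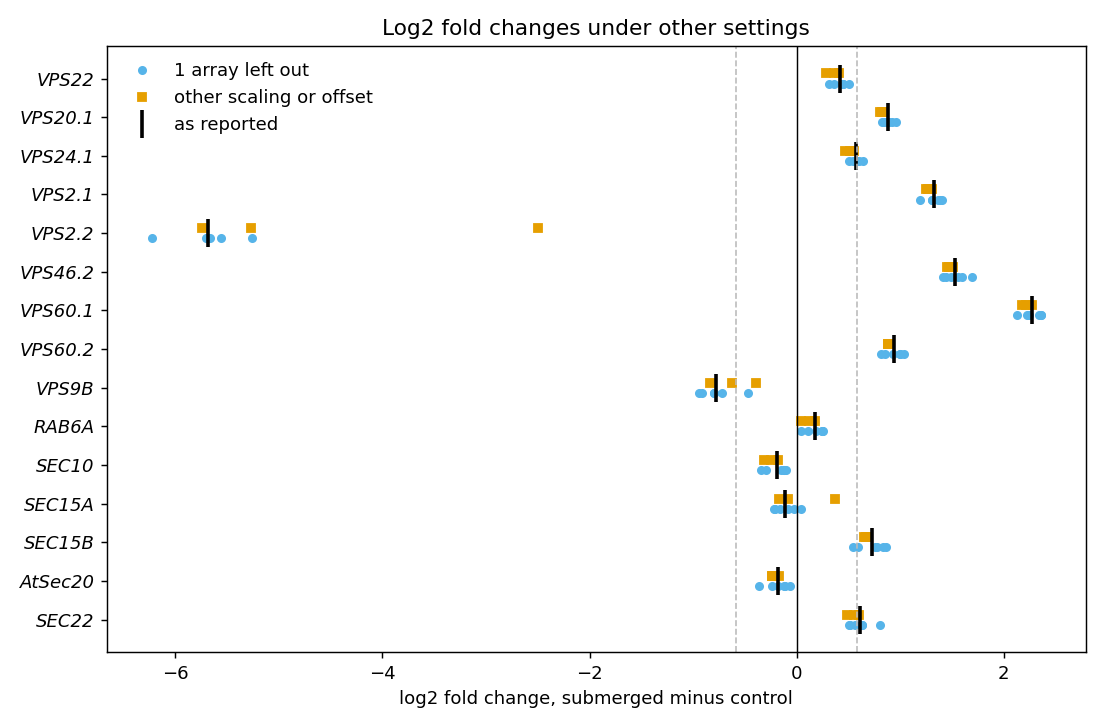
Log2 fold change (horizontal axis) of the 15 genes with signal over background on 3 or more arrays, as reported (black bar), with each array left out in turn (blue points) and after quantile normalization, subtraction of the 75th percentile or an offset of 32 (orange squares). The dashed lines mark 1.5-fold; VPS20.1, VPS2.1, VPS46.2, VPS60.1 and VPS60.2 stay right of the upper line throughout, while SEC22, SEC15B and VPS24.1 lie across it.

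The list of other trafficking genes held 24 measured genes, the 3 ESCRT genes above included. In this list, with a median log2 fold change of 0.30, 9 genes were upregulated, 2 were downregulated and 13 were not called. Over all probe sets 18.3% were upregulated and 24.3% downregulated, against 27.4% and 31.4% of those above background on all 6 arrays. The median of the list was 0.17 without submergence replicate 2 and 0.52 over its genes above background on all 6 arrays. Endosomes hand cargo to the vacuole when the MON1 and CCZ1 proteins together activate the Rab7-type GTPases. CCZ1A (At1g16020) fell from 8.94 ± 0.22 (SD, n = 3) to 7.33 ± 0.30 (SD, n = 3), 3.05-fold lower (limma adjusted p = 0.000212). MON1 (At2g28390), its partner, gave a log2 fold change of -0.16, with limma adjusted p = 0.50. The difference between them was not tested.

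Vesicle coats recruit cargo through adaptor complexes. AP2M (At5g46630), the medium subunit of the endocytic adaptor AP-2, rose 2.15-fold (limma adjusted p = 5.18e-05). AP4M (At4g24550), of the adaptor AP-4 that sorts vacuolar cargo, rose 1.84-fold (limma adjusted p = 0.00058). The endocytic protein gene TPLATE gave 0.14 on the log2 scale, with limma adjusted p = 0.588. The dynamin gene DL1B did not pass. It counted as above background on the submerged arrays alone, where the background level was lower. Its signals overlapped, at 2.32, 6.29 and 5.57 on the control arrays and 6.32, 6.19 and 6.55 on the submerged arrays. KEU (At1g12360), a SNARE regulator of cell plate formation, rose 2.69-fold (limma adjusted p = 8.96e-05). YKT61 (At5g58060), a SNARE, rose 1.96-fold (limma adjusted p = 0.000327), whereas YKT62 was below background throughout. The list of COPI and COPII coats had 4 measured genes, none of which encodes a coat subunit: ECH acts at the trans-Golgi network, MAG2 in tethering at the endoplasmic reticulum, and the PRA1 proteins are Rab receptors. ECH rose 1.52-fold (limma adjusted p = 0.016) and lost its call in the settings that ended that of SEC22, with log2 fold changes of 0.54 without control replicate 3, 0.55 without submergence replicate 1 and 0.48 without submergence replicate 2. MAG2, PRA1.B1 and PRA1.B4 did not pass.

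Proteins that reach the vacuole were represented by the vacuolar processing enzymes, cysteine proteases that mature other vacuolar proteins. GAMMA-VPE (At4g32940), the form of vegetative organs, rose from 11.47 ± 0.46 (SD, n = 3) to 14.20 ± 0.09 (SD, n = 3), a 6.65-fold increase (limma adjusted p = 5.74e-06) and the largest of all the trafficking genes called here. BETA-VPE (At1g62710), known from seeds, was above background on the control arrays alone, with means of 7.05 and 5.29. By the same bound, also on the deposited scale only, it was at least 2.48-fold lower. Its call came from the limma fit of the deposited signals (adjusted p = 0.0058), which does not test the bound. ALPHA-VPE and DELTA-VPE were below background on all 6 arrays.

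The vacuolar proton pump, which acidifies the compartments that these genes serve, was not called in any of 4 subunit genes. VHA-A1, of the trans-Golgi network form, had a log2 fold change of -0.13 (95% confidence interval -0.52 to 0.26). VHA-A2 and VHA-A3, of the vacuolar form, had log2 fold changes of 0.06 (95% confidence interval -0.33 to 0.44) and -0.41 (-0.70 to -0.12), and that of VHA-A2 was below 0 after quantile normalization and after subtraction of the 75th percentile. VHA-D had one of 0.08 (-0.27 to 0.43). The arrays of VHA-A3 did not overlap, with an adjusted p of 0.027 from limma, but the change was under 1.5-fold.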

How the data were processed

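Transcripts of leaves were profiled on 6 ATH1 arrays. The authors summarised each array with MAS5, named in the submitters' processing notes, and deposited log2 signals, whose linear 2% trimmed mean was alike on all arrays (495.2 to 496.3). Its version was not given in the sources used. Groups followed the deposited labels.

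Names came from the platform annotation and locus identifiers from a RefSeq gene table. A single gene was assigned to 13513 of the 22746 probe sets, several genes to 503 and none to 8730. Where a gene had more than 1, the brightest on average stood for it. The members and lists were chosen with earlier results of these data known. From 183 symbols on the list of other trafficking genes, 24 genes found by name or synonym among probe sets with 1 gene were used.

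All 22746 probe sets were fitted with limma (version 3.58.1, R 4.3.3), using moderated variances with a trend on mean signal and no block, and p-values were adjusted by Benjamini-Hochberg. Paralog pairs were compared by exact permutation of the arrays. The small number of arrays limits the precision. The rule for named genes took the called members with the largest changes (6 in each direction, and up to 2 per family), split paralog pairs and up to 2 genes of each list in each direction, but all 17 members and further list genes are described, the latter chosen after their values were seen. Plots used matplotlib 3.10.9 (Python 3.11.15).

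Several choices were made after values were seen. CHC1 and the marker FDH were dropped because the loci matched encode a chromatin protein and formate dehydrogenase. CHC1 was upregulated, and with it 10 of 25 list genes would have been. The grouping by complex and the paralog pairs were also set then. The SNF7 pair was added to 4 pairs already tested, which moved the adjusted p of 3 of them from 0.133 to 0.125. The fit was tested on simulated data. A first simulation that changed probe sets of any brightness recovered fewer of the largest changes than the minimum set for it. The one kept changed only probe sets above background on all arrays, so it does not cover dim genes such as VPS24.2, ATSYP24 or VPS2.2 after submergence.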

Additional observations from a re-analysis of the deposited data

How the results depend on the processing

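Over 17 other settings, 5 to 9 of the 17 genes were upregulated, apart from 3 with a minimum of 2-fold, and 1 was downregulated, apart from 2 when the test was limited to signals over background on 3 arrays or more and 2 at an unadjusted p under 0.05, where VPS9B joined VPS2.2. The setting limited to probe sets above background on all 6 arrays was chosen after seeing the data. It held 14 of the 17 genes and 19 of the 24 other trafficking genes, without VPS2.2 and BETA-VPE. There the 1 downregulated gene of the 14 was VPS9B, and 1 of the 19, CCZ1A, was downregulated. At 2-fold, 5 of the 24 other trafficking genes were upregulated. With 1 array left out, 6 to 8 of the 17 genes were upregulated and 1 downregulated, with a median log2 fold change of 0.32 to 0.54, and 8 to 9 of the 24 others were upregulated and 2 downregulated, with a median of 0.17 to 0.40.

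The sign turned for some genes that were not called. After quantile normalization the log2 fold change was 0.37 for SEC15A, 0.47 for ALPHA-VPE and -0.078 for VHA-A2, and with the 75th percentile subtracted that of VHA-A2 was -0.0028. With 1 array left out, it ranged from -1.95 to 0.80 for VPS24.2, from -0.22 to 0.041 for SEC15A, from -0.86 to 0.41 for ALPHA-VPE, from -0.021 to 0.27 for TPLATE, from -0.014 to 0.20 for VHA-D, from -0.048 to 0.25 for PRA1.B4 and from -0.11 to 0.20 for VHA-A2. The cause was not tested.

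With the replicate number as a block, 7 of the 17 genes were upregulated and 1 downregulated, as without it, and 9 and 2 of the 24 others. The numbers did not pair the samples: the deviations of same-numbered arrays correlated at 0.027, -0.012 and 0.059, and not every array correlated best with its own number. Signals below background limit VPS2.2, BETA-VPE, VPS24.2 and ATSYP24.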
